A study of Mus musculus with 8 samples.

Results

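The cytosolic ribosome is built from ribosomal RNA and a set of ribosomal proteins, each made by its own gene. The genes described here are those of the mouse count table whose names begin with Rpl (large, 60S subunit) or Rps (small, 40S subunit) followed by a number and at most a short paralog suffix, together with Rplp0, Rplp1, Rplp2 and Rpsa; names marked as pseudogene copies (-ps) were left out. This gave 88 of 55421 genes in the table, 54 of the large and 34 of the small subunit. Of the 88, 77 carry a standard name and 11 carry a paralog suffix (Rpl3l, Rpl6l, Rpl7l1, Rpl10l, Rpl22l1, Rpl32l, Rpl36al, Rpl39l, Rps4l, Rps12l1 and Rps27l). The annotation lists 4 of these paralogs as pseudogenes, namely Rpl6l, Rpl32l, Rps4l and Rps12l1.

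RNA of small intestine from mice of WT genotype was sequenced in 8 samples. All mice were held at 7% oxygen for 7 days. The 4 Hypoxia samples had no further treatment, and the 4 Hypoxia+Nitrate samples came from mice that also received 4 mM nitrate, a dietary precursor of nitric oxide. No group at normal oxygen is included, so every comparison is between nitrate and no nitrate under low oxygen. Whether the samples are separate animals is not stated in the labels, and p-values therefore reflect only the variation among these 8 samples, which may be technical. The protocol text names islets at RNA isolation although the tissue label is small intestine. The 4 islet markers (Ins1, Ins2, Gcg, Iapp) summed to 0.00453% to 0.00755% of the nuclear protein-coding counts in Hypoxia and 0.000231% to 0.00578% in Hypoxia+Nitrate.

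The libraries differed in what they held. Nuclear protein-coding counts were 2608226 to 3489585 per Hypoxia library and 5004491 to 15891314 per Hypoxia+Nitrate library. A background was estimated from 1471 chemosensory receptor genes (odorant, vomeronasal, trace-amine) on the assumption that gut does not express them. It equalled 39.1% to 63.7% of the nuclear protein-coding counts of a Hypoxia library and 2.75% to 23.2% of those of a Hypoxia+Nitrate library. Of all counts, the Hypoxia libraries had 7.06% to 75.7% in a ribosomal DNA locus and 0.423% to 1.06% in mitochondrially encoded mRNAs. The Hypoxia+Nitrate libraries had 2.33% to 22.0% and 6.90% to 64.0%. All 8 enterocyte markers (Fabp2, Vil1, Apoa1, Alpi, Sis, Anpep, Fabp1, Lct) had counts in every library, but their sum was only 0.0229% to 0.259% of nuclear protein-coding counts in Hypoxia, against 0.309% to 4.31% in Hypoxia+Nitrate. These differences lie in the same direction as the group contrast, and their part in the results below was not tested. In bulk tissue, fewer cells of a type and less RNA per cell cannot be told apart.

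Ribosomal proteins are needed in near-equal numbers, and their mRNAs are among the most abundant of growing cells. In mammals most of them begin with a C followed by a run of pyrimidines, the 5′ terminal oligopyrimidine (TOP) tract, through which mTOR signalling and the La-related protein Larp1 control their translation together. In the small intestine, ribosome production is high in the dividing crypts, and protein synthesis also serves secretion and absorption along the villus.

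Because the mRNAs of this family are read out together, the starts of their genes are shown first. RefSeq promoters (GRCm38.p6, 250 bases before to 50 after the annotated start) matched 65 of the 88 genes. Each line below is 15 bases before and 15 bases from the annotated start on, 5′ to 3′ on the gene's strand. Capitals mark the unbroken run of pyrimidines that begins with a C at the first transcribed base. The first 8 genes were chosen to span the lengths of the run, and the last 4 are the genes with the largest and the lowest changes reported below, which have no such run at the annotated base (for Rpl3l, the first of its RefSeq starts).
Rpl15 (chr14:18270972-18271001, minus strand): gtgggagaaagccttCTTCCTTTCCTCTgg
Rps10 (chr17:27635230-27635259, minus strand): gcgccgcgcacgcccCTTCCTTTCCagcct
Rps18 (chr17:33955651-33955680, minus strand): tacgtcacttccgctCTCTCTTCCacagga
Rps6 (chr4:86857353-86857382, minus strand): aagcggaagtcgggcCTCTTTTTCgtgacg
Rpl35a (chr16:33056467-33056496, plus strand): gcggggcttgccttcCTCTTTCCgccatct
Rps15a (chr7:118116133-118116162, minus strand): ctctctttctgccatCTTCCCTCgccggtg
Rps27 (chr3:90213634-90213663, minus strand): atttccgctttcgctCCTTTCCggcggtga
Rplp2 (chr7:141447636-141447665, plus strand): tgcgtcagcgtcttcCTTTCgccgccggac
Rps12 (chr10:23787195-23787224, minus strand): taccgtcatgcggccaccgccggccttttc
Rpl37a (chr1:72711245-72711274, plus strand): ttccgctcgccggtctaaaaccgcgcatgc
Rpl3l (chr17:24727811-24727840, plus strand): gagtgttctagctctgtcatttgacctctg
Rpl39l (chr16:10170213-10170242, plus strand): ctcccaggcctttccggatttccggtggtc

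A C at the annotated start followed by at least 4 pyrimidines was present in 14 of 65 matched members (21.5%), against 813 of 27025 genes with a RefSeq promoter (3.01%). The match depends on the exact annotated base: the Rps12 window carries a pyrimidine stretch a few bases after its annotated start that this definition does not count. CCGGAAG, a core read by ETS-family factors and searched on both strands, was in the 300-base promoter of 26 of 65 members (40.0%) and 9.93% of all genes. TATAAA, searched likewise, was in 12.3% of members and 15.7% of all genes. The median log2 fold change of Hypoxia+Nitrate over Hypoxia was 3.64 for members with the pyrimidine run (13 tested) and 3.66 for members without it (50 tested). The corresponding medians were 3.65 with CCGGAAG and 3.69 without it.

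The question of the comparison was whether intestinal transcripts differ when nitrate is given during hypoxia. As a share of nuclear protein-coding counts, a measure that uses no scaling between libraries, the members other than the 4 annotated pseudogenes took 1.46%, 2.30%, 0.396% and 0.669% in Hypoxia 1 to 4. In Hypoxia+Nitrate 1 to 4 they took 6.67%, 4.94%, 6.84% and 6.09%. The groups did not overlap, and the means were 1.21% ± 0.858 and 6.14% ± 0.861 (SD, n = 4 each). Within Hypoxia, samples 1 and 2 lay above samples 3 and 4.

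The summed counts of all 88 genes, pseudogenes included, were 38207, 64952, 13890 and 22538 in Hypoxia and 635105, 247528, 379142 and 969399 in Hypoxia+Nitrate. Expected background amounted to 7.72%, 3.01%, 24.3% and 12.3% of the summed counts in Hypoxia 1 to 4, and to at most 0.833% in any Hypoxia+Nitrate library. After the expected background was subtracted from the members and from all nuclear protein-coding genes, the share was 3.28%, 3.55%, 0.612% and 1.05% in Hypoxia and 6.82%, 6.12%, 8.05% and 6.23% in Hypoxia+Nitrate. These groups did not overlap either, but the ratio of means was smaller, at 2.12% ± 1.51 against 6.81% ± 0.881 (SD, n = 4 each). Before any subtraction, enterocyte markers made up 4.31%, 0.532%, 0.309% and 4.2% of the nuclear protein-coding total in Hypoxia+Nitrate 1 to 4. These markers were high in replicates 1 and 4. The ribosomal protein share of that group was highest in replicates 3 and 1, with or without subtraction. What enterocyte content contributed to that share was not tested.

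**Figure D1:**
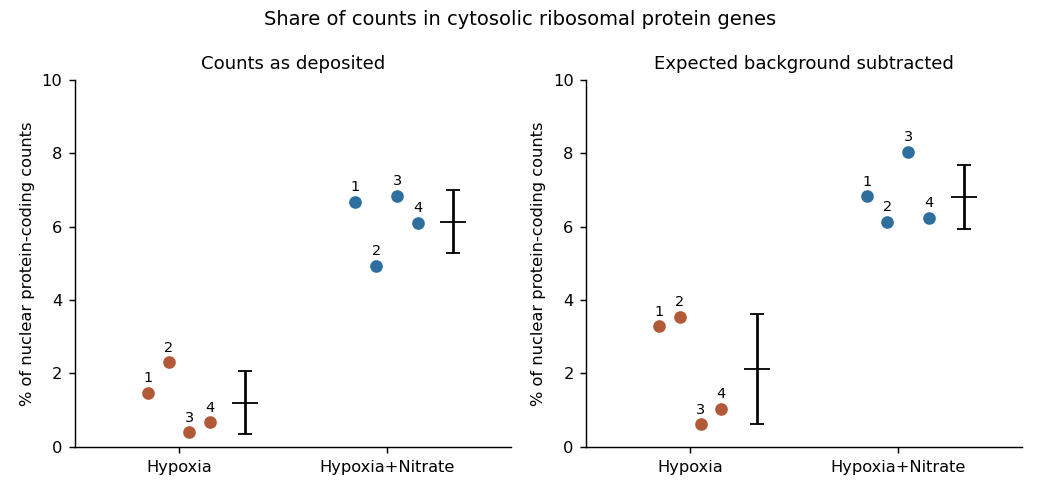
Summed counts of the cytosolic ribosomal protein genes, without the 4 annotated pseudogenes, as a percentage of nuclear protein-coding counts in each library (y axis, from 0), with counts as deposited on the left and with the expected background subtracted on the right. Points are libraries, numbered by replicate, and bars show mean ± SD (n = 4); all Hypoxia+Nitrate libraries lie at or above 4.94% and all Hypoxia libraries at or below 3.55% in both panels.

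Gene by gene, 85 of the 88 passed the filter on low counts and were tested with edgeR's quasi-likelihood test, with Benjamini-Hochberg adjustment over all 35431 genes tested. Of the 85, 83 were higher in Hypoxia+Nitrate, 1 (Rpl3l) was lower and 1 (Rpl39l) was not called. Among all genes tested 11.7% were called higher and 12.7% lower. The 83 included all 77 genes with a standard name. Log2 fold changes of the 83 ran from 2.43 to 6.30, with 72 of them between 3 and 4.2, a median SE of 0.791 and adjusted p from 0.00917 to 0.0219. The median over the 85 was 3.70, beside −0.58 over all genes tested.

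In CPM (counts scaled to library size, here with TMM factors), every Hypoxia+Nitrate value lay above every Hypoxia value for 83 of the 85 genes, which was the case for 12.0% of all genes. Scaled to the nuclear protein-coding counts of each library, 82 lay above, against 3.85% of all genes, and 1 lay below, against 43.5% of all genes. In CPM, 1 lay below (28.8% of all genes) and 1 overlapped. The fold changes of the same 83 genes stayed positive with RLE, upper-quartile and library-size scaling, under which the median over all genes was −0.87, −0.94 and −1.07. The number called higher was 32 without Hypoxia 1 (1.95% of all genes called higher), 60 without Hypoxia 4 (4.23%) and 45 with library size as the only scaling (0.686%). With the background share of each library as a covariate, which itself separated the groups, edgeR called 0 members (0.0% of all genes), 2 were higher at an unadjusted p under 0.05 (2.35% of members, against 2.15% of all genes), and background and nitrate cannot be told apart in that fit.

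Of the named genes below, 18 lost their call without Hypoxia 1, at adjusted p between 0.0502 and 0.0813 (edgeR). They were Rpl3, Rpl3l, Rpl6l, Rpl7, Rpl7a, Rpl7l1, Rpl10, Rpl10a, Rpl13a, Rpl15, Rpl31, Rpl36al, Rplp0, Rplp1, Rps3a1, Rps4x, Rps15a and Rpsa. Their fold changes without Hypoxia 1 kept their sign. Without Hypoxia 4, 11 of these 18 lost their call (adjusted p 0.0535 to 0.0855, edgeR), namely Rpl3, Rpl3l, Rpl10, Rpl10a, Rpl13a, Rpl31, Rplp0, Rplp1, Rps3a1, Rps4x and Rpsa. Without Hypoxia 3, 4 did (adjusted p 0.0535 to 0.0948, edgeR): Rpl3l, Rpl13a, Rpl31 and Rplp0. With library size as the only scaling 20 named genes lost their call (adjusted p 0.0622 to 0.568, edgeR): Rpl3l, Rpl6l, Rpl7, Rpl7a, Rpl7l1, Rpl10, Rpl15, Rpl17, Rpl21, Rpl22, Rpl22l1, Rpl31, Rpl35a, Rpl36al, Rpl39, Rplp2, Rps4l, Rps15a, Rps24 and Rps27l.

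**Figure D2:**
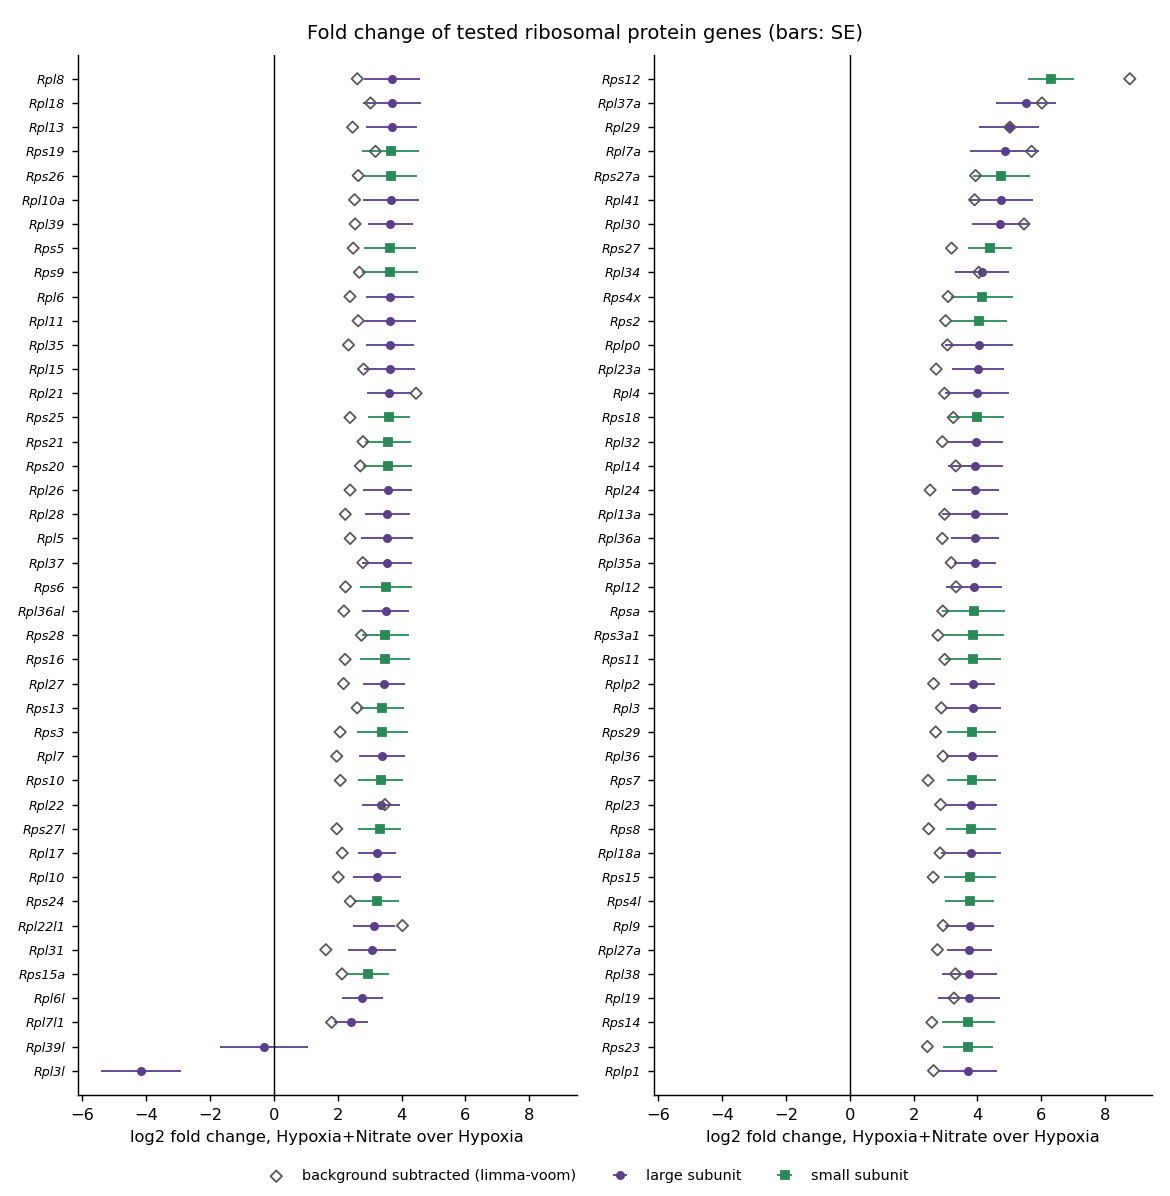
Log2 fold change of Hypoxia+Nitrate over Hypoxia (x axis) for 84 of the 85 tested genes, sorted by size and split over both panels (1 gene called higher is not drawn); filled points are the edgeR fit with SE bars (circles, large subunit; squares, small subunit) and open diamonds the limma-voom fit after background subtraction, where the gene was tested. Rpl39l (−0.30) and Rpl3l (−4.16) stand apart at the bottom left, and the other filled points lie between 2.43 and 6.30.

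Large- and small-subunit genes had overlapping fold changes. Of the large-subunit genes 50 of 52 tested rose and 1 fell, with a median log2 fold change of 3.70 (quartiles 3.55 and 3.92). All 33 tested small-subunit genes rose, with a median of 3.66 (quartiles 3.49 and 3.86). The ratio of summed large-subunit to summed small-subunit counts was 1.19, 1.37, 1.26 and 1.31 in Hypoxia and 1.37, 1.27, 1.43 and 1.33 in Hypoxia+Nitrate, in replicate order. The groups overlapped, at 1.28 ± 0.0788 and 1.35 ± 0.0673 (SD, n = 4 each).

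Rplp0, Rplp1 and Rplp2 encode the stalk of the large subunit, which recruits the elongation factors. Rplp0 (ENSMUSG00000067274; GRCm38 chromosome 5, 115559467 to 115563727) stood at 112, 251, 15.3 and 62.6 CPM in Hypoxia and at 2780, 742, 1191 and 2539 CPM in Hypoxia+Nitrate, in replicate order. The groups did not overlap, with Hypoxia 3 lowest and Hypoxia+Nitrate 2 the lowest of its group, and the log2 fold change was 4.04 (SE 1.07, edgeR adjusted p = 0.0219). This call was lost without Hypoxia 1, 3 or 4 (adjusted p = 0.0813, 0.0535 and 0.0818). Rplp1 rose by 3.71 (SE 0.905) and Rplp2 by 3.86 (SE 0.702). Rpsa, a small-subunit protein also known as the laminin receptor, rose by 3.88 (SE 0.982, edgeR adjusted p = 0.0185).

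Per kilobase of RefSeq-supported transcript, averaged over both groups, the highest levels belonged to Rpl13a, Rplp0, Rps3a1, Rplp1 and Rpl10a. In Hypoxia alone Rps6 (83.9 CPM per kb) lay above Rpl10a (82.8) and Rplp0 (81.1). Rpl13a, a large-subunit protein also known for silencing inflammatory mRNAs once released from the ribosome, averaged 107 CPM per kb in Hypoxia and 1614 in Hypoxia+Nitrate. Only 64.6% of its exonic length is free of other genes, so its counts are less certain. Rps3a1 averaged 90.8 and 1326 CPM per kb. By the same average the lowest levels among standard names belonged to Rps15a, Rpl22, Rpl21, Rpl7a and Rpl15, although in Hypoxia alone Rps12 (3.27 CPM per kb) and Rpl29 (6.32) lay below Rpl15 (6.72); for Rps15a (4.58 and 35.5 CPM per kb) the supported transcript is 5179 bases long, which lowers a per-length value. Across the 77 standard genes the order of levels was much the same in both groups (Spearman 0.92 between group means per kb, across genes that share libraries and lengths, which are not independent replicates).

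The largest change was that of Rps12, a small-subunit protein (ENSMUSG00000061983; chromosome 10, 23785183 to 23787275, minus strand). Its CPM values were 2.20, 2.69, 1.53 and 1.20 in Hypoxia and 229, 60.7, 74.8 and 238 in Hypoxia+Nitrate, in replicate order. All Hypoxia values were low and close together, and the log2 fold change was 6.30 (SE 0.730, edgeR adjusted p = 0.00917). Its deposited counts were 33, 37, 29 and 20 in Hypoxia, 1.00 times the expected background over the 4 libraries, against 187 times in Hypoxia+Nitrate.

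Rpl37a, a small zinc-binding protein of the large subunit (chromosome 1, 72711290 to 72713813), had 2.40, 14.9, 1.74 and 2.41 CPM in Hypoxia and 357, 116, 158 and 355 CPM in Hypoxia+Nitrate. Hypoxia 2 lay above the other Hypoxia samples, far below every Hypoxia+Nitrate sample. The log2 fold change was 5.52 (SE 0.938, edgeR adjusted p = 0.00917), and the Hypoxia counts were 1.41, 12.1, 1.13 and 1.66 times the expected background. Without Hypoxia 2 the log2 fold change was 6.83. Rpl29, Rpl7a, Rps27a and Rpl41 followed, with log2 fold changes of 4.98 (SE 0.939), 4.85 (SE 1.08), 4.75 (SE 0.885) and 4.74 (SE 0.993). Rpl29 counts in Hypoxia 1 to 4 were 169, 19, 27 and 74, at 8.28, 1.41, 1.16 and 3.85 times the expected background. Rps27a makes a small-subunit protein fused to ubiquitin, and Rpl41 makes the shortest protein of the ribosome.

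Rpl7a, a large-subunit protein (chromosome 2, 26910764 to 26913318), differed from the others in its spread. Its values were 1.13, 1.45, 2.27 and 4.40 CPM in Hypoxia and 116, 4.89, 10.6 and 138 CPM in Hypoxia+Nitrate. Hypoxia+Nitrate 2 lay just above Hypoxia 4, whereas Hypoxia+Nitrate 1 and 4 lay far above. Hypoxia counts were 1.38 times the expected background. Without Hypoxia+Nitrate 1 and 4 its log2 fold change was 1.85 (adjusted p = 0.0555, edgeR).

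The smallest changes among standard names were those of Rps15a (2.95, SE 0.660), Rpl31 (3.08, SE 0.748), Rps24 (3.22, SE 0.705), Rpl10 (3.23, SE 0.756), Rpl17 (3.24, SE 0.592) and Rpl22 (3.35, SE 0.594), each called higher by edgeR with TMM and not with library size alone. Rps15a, which had 33.9, 34.4, 11.5 and 15.2 CPM in Hypoxia and 250, 74.5, 114 and 297 CPM in Hypoxia+Nitrate, still showed no overlap. Rps24 is one of the genes mutated in Diamond-Blackfan anaemia, and Rpl10 and Rpl22 are known for lesions in leukaemia. The lowest p values among standard names belonged to Rps12, Rps27, Rpl35a, Rpl37a, Rpl22 and Rplp2, with a shared adjusted p of 0.00917. Rps27, a zinc-finger protein of the small subunit, rose by 4.39 (SE 0.694) and Rpl35a, another Diamond-Blackfan gene, by 3.92 (SE 0.653).

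Set against the receptor-gene background, the tested members held a median of 10.9 times the expected counts in Hypoxia and 380 times in Hypoxia+Nitrate. The expected counts assume an even background per kb. Receptor genes with any count were 98.8% to 99.5% in Hypoxia libraries and 31.1% to 82.2% in Hypoxia+Nitrate libraries. Whether the background was even was not tested, so the Hypoxia+Nitrate ratios are less certain. Pooled over the 4 Hypoxia libraries, 6 of the 85 were under 2 times the background: Rps12 (1.00), Rpl7a (1.38), Rpl22l1 (1.79), Rpl7l1 (1.95), Rpl3l (1.46) and Rpl39l (0.904). In Hypoxia 3 alone further members were under 2 times, among them Rpl21 (0.756), Rpl22 (1.05) and Rpl29 (1.16). After subtraction of the expected background, 81 members could be fitted with limma-voom. Of these, 71 were called higher (4.24% of all genes in that fit), 10 were not called and 0 had a negative fold change, with a median of 2.71 (median SE 0.681) beside 0.07 over all genes in that fit. The 10 not called were Rpl7a, Rpl7l1, Rpl19, Rpl21, Rpl22, Rpl22l1, Rpl31, Rpl36al, Rps15a and Rps27l.

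**Figure D3:**
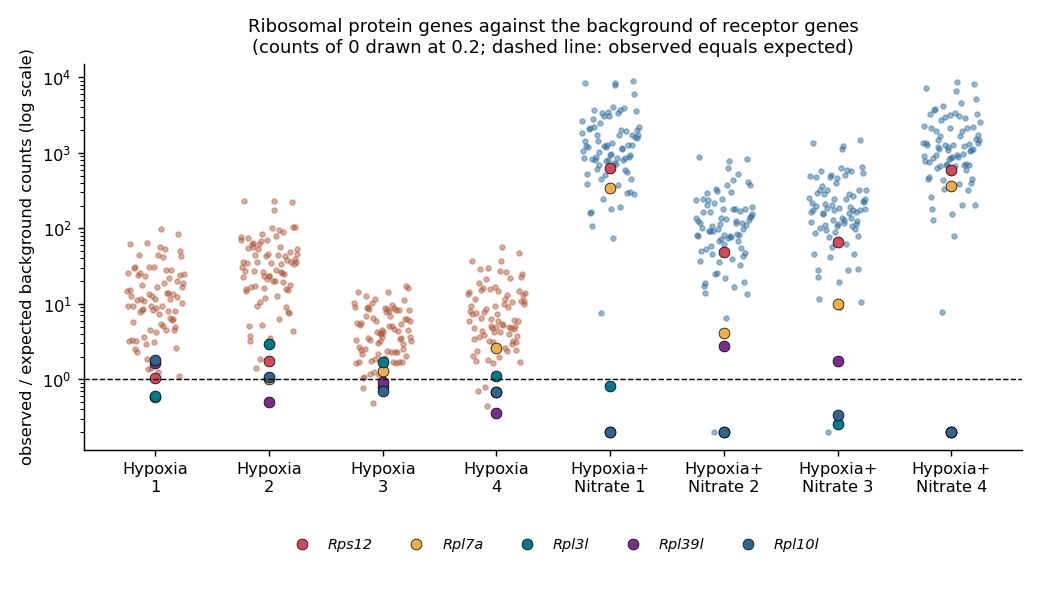
Observed counts divided by the counts expected from receptor genes (y axis, log scale) for each ribosomal protein gene in each of the 8 libraries; the dashed line marks equality and counts of 0 are drawn at 0.2. Small points are members and large points the 5 genes in the legend: Rps12 and Rpl7a lie near the line in Hypoxia and above it in Hypoxia+Nitrate, while Rpl3l, Rpl39l and Rpl10l lie near or below it throughout.

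Expressed as a percentage of all ribosomal protein counts in the same library, which removes the shift the genes share, 77 of the 85 tested genes overlapped between the groups. All Hypoxia+Nitrate libraries were above all Hypoxia libraries for 3 genes (Rpl37a, Rps12 and Rpl41), which was the case for 0.0198% of all genes. They were below for 5, among them Rpl3l, Rpl7l1, Rps15a and Rps16, against 81.6% of all genes. Rps16 is a member outside the named genes listed with the processing, and is given because its values did not overlap. Rps12 made up 0.0864%, 0.0570%, 0.209% and 0.0887% of ribosomal protein counts in Hypoxia and 0.508%, 0.431%, 0.362% and 0.504% in Hypoxia+Nitrate. Rpl37a made up 0.0942%, 0.316%, 0.238% and 0.177% against 0.790%, 0.822%, 0.765% and 0.751%, so that its Hypoxia+Nitrate values were close together and its Hypoxia values were not.

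Rpl41 took 0.170%, 0.996%, 0.785% and 0.825% in Hypoxia and 1.66%, 1.06%, 1.68% and 1.22% in Hypoxia+Nitrate, with Hypoxia 2 just under Hypoxia+Nitrate 2. Rps15a took 1.33%, 0.728%, 1.57% and 1.12% in Hypoxia against 0.554%, 0.529%, 0.552% and 0.627% in Hypoxia+Nitrate. With the expected background subtracted, Rpl37a, Rps12 and Rpl41 remained above and Rps15a and Rps16 remained below. Rpl3l and Rpl7l1 then overlapped, and Rpl30 (above) and Rps6 (below) were added.

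**Figure D4:**
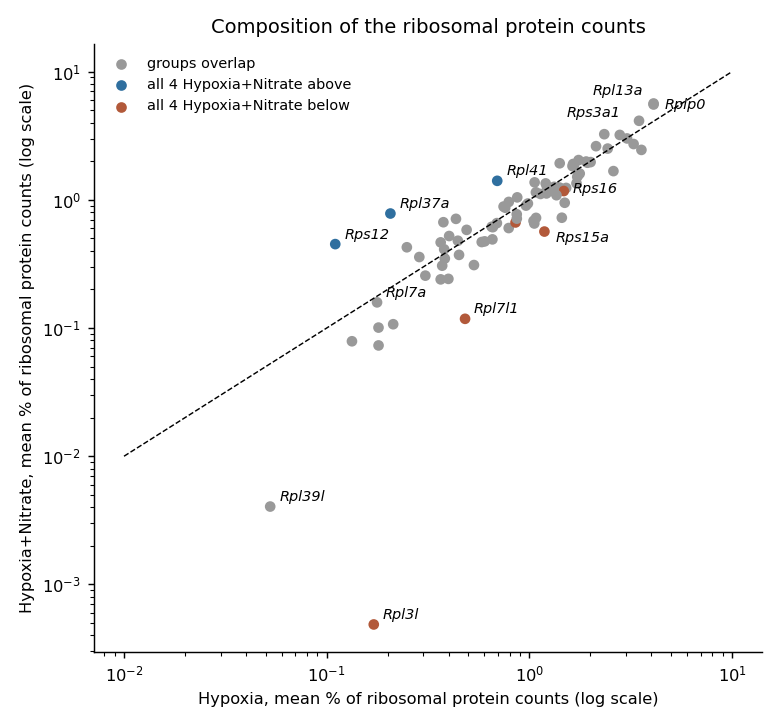
Mean share of each tested gene in the ribosomal protein counts, Hypoxia on the x axis and Hypoxia+Nitrate on the y axis, both in percent on log scales; the dashed line marks equal shares. Grey points are the 77 genes whose libraries overlap, blue the 3 above (Rpl37a, Rps12, Rpl41) and red the 5 below, with Rpl3l far under the line.

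Paralogs of ribosomal proteins often replace their partner in a single tissue. Rpl3l replaces Rpl3 in heart and skeletal muscle (ENSMUSG00000002500; chromosome 17, 24727820 to 24736143). It was the member called lower, with 1.20, 4.15, 3.0 and 1.87 CPM in Hypoxia and 0.284, 0, 0.272 and 0 CPM in Hypoxia+Nitrate. The groups did not overlap, and the log2 fold change was −4.16 (SE 1.26, edgeR adjusted p = 0.0360). The counts behind these values were 18, 57, 57 and 31 against 4, 0, 5 and 0, which is 1.46 times the expected background in Hypoxia and 0.170 times in Hypoxia+Nitrate. The call was lost without Hypoxia 1 (adjusted p = 0.0810), Hypoxia 3 (0.0948) or Hypoxia 4 (0.0855), without Hypoxia 1 and 2 (0.197), and with library size alone (0.181), and the gene did not enter the background-subtracted fit. Of 5 striated muscle markers (Ckm, Acta1, Myh1, Tnnt3, Myl1) 0 were higher and 1 (Myh1) was lower, against 11.7% and 12.7% of all genes. These markers summed to 0.0101% to 0.0130% of the nuclear protein-coding counts in Hypoxia and 0.00417% to 0.00783% in Hypoxia+Nitrate. The part of muscle or of background in the Rpl3l values was not tested.

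Rpl39l and Rpl10l are the testis paralogs of Rpl39 and Rpl10. Rpl39l (chromosome 16, 10170226 to 10174911) had 25, 5, 16 and 5 counts in Hypoxia and 0, 29, 17 and 0 in Hypoxia+Nitrate. The groups overlapped, with a log2 fold change of −0.30 (SE 1.37, edgeR adjusted p = 0.883). Rpl10l (chromosome 12, 66283379 to 66284401) had 33, 13, 15 and 12 counts in Hypoxia, 1.05 times the expected background, and 0, 0, 4 and 0 in Hypoxia+Nitrate; it did not pass the filter. Of the 4 testis markers (Tnp1, Prm1, Prm2, Ddx4) 2 were tested and 0 called, and Tnp1 was at 0 in all Hypoxia+Nitrate libraries; they summed to 0.00170% to 0.00452% of the nuclear protein-coding counts in Hypoxia and 0.000289% to 0.00107% in Hypoxia+Nitrate. The other genes that did not pass were pseudogenes. Rpl32l had 21, 9, 4 and 3 counts against 9, 0, 0 and 15, and Rps12l1 had 0 counts in all 8 libraries, with 0% of its exonic length free of other genes.

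The remaining 6 paralogs rose, though none of the 6 was called with library size as the only scaling. Rps4l, Rpl36al, Rps27l, Rpl22l1, Rpl6l and Rpl7l1 had log2 fold changes of 3.76 (SE 0.763), 3.50 (SE 0.734), 3.32 (SE 0.672), 3.14 (SE 0.650), 2.77 (SE 0.644) and 2.43 (SE 0.534). Rpl7l1, a protein of large-subunit precursors, had the smallest change of the 83. Rpl6l and Rps4l are annotated as pseudogenes whose reads may belong in part to their parent genes.

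The share of each paralog in the counts of its pair was compared in 8 pairs with an exact 2-sided permutation test over the libraries. With 4 against 4 the smallest p is 0.0286, and 0 of the 8 pairs passed 0.05 after Benjamini-Hochberg adjustment over the pairs. The Rps27l share of Rps27l plus Rps27 was 46.5%, 28.0%, 39.2% and 32.6% in Hypoxia and 21.1%, 13.5%, 16.6% and 22.6% in Hypoxia+Nitrate, in replicate order. The groups did not overlap, at 36.6% ± 8.07 against 18.4% ± 4.15 (SD, n = 4 each; exact permutation p = 0.0286, adjusted 0.0571). Rps27l is a p53-induced paralog of Rps27. With the expected background subtracted its share was 35.0% ± 9.32 against 18.2% ± 4.38 (SD, n = 4 each) and the groups still did not overlap (exact permutation p = 0.0286, adjusted 0.229).

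The shares of Rpl3l, Rpl7l1 and Rpl10l were likewise lower in every Hypoxia+Nitrate library (exact permutation p = 0.0286, adjusted 0.0571 each), but overlapped once the background was subtracted. For Rpl7l1 the shares were 8.81%, 10.2%, 22.3% and 14.7% in Hypoxia and 6.77%, 6.04%, 5.98% and 7.51% in Hypoxia+Nitrate. The Rpl3l share was 3.61% to 21.1% in Hypoxia and at most 0.0651% in Hypoxia+Nitrate, where the counts of 0 in replicates 2 and 4 allow up to 0.0725% and 0.0181% (3 counts of the pair, counting error only). The Rpl22l1 share, 32.2% ± 11.9 and 29% ± 3.50 (SD, n = 4 each), differed by less than the spread in Hypoxia (exact permutation p = 0.686, adjusted 0.686). Rpl36al (adjusted 0.229), Rpl39l (0.0914) and Rps4l (0.261) also overlapped.

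**Figure D5:**
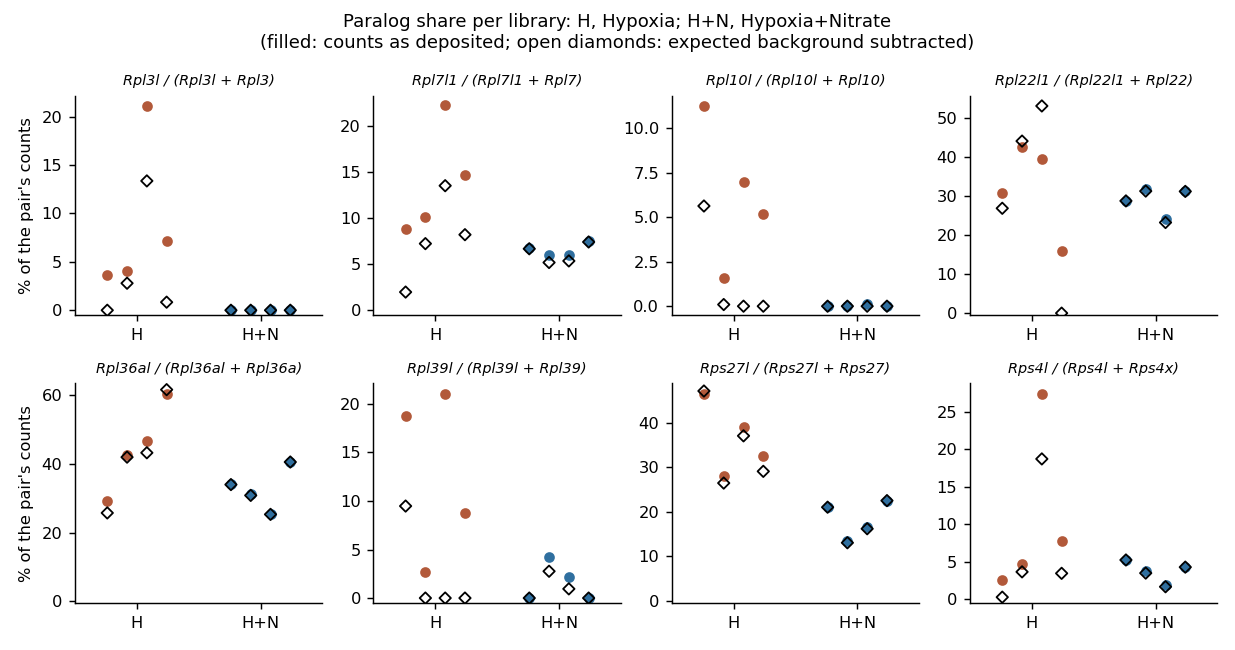
Counts of a paralog as a percentage of the counts of its pair in each library, one panel per pair with its own y scale; H is Hypoxia and H+N is Hypoxia+Nitrate. Filled points use the deposited counts and open diamonds the counts less expected background; Rps27l is the pair whose groups stay apart both ways, with 28.0% to 46.5% in Hypoxia and 13.5% to 22.6% in Hypoxia+Nitrate.

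Genes that work with the ribosomal proteins were read from the same fit, from lists drawn up from general knowledge. In that fit 11.7% of all genes were called higher and 12.7% lower, with a median log2 fold change of −0.58. Among ribosome components outside the rule, Fau, which makes a small-subunit protein fused to a ubiquitin-like domain, rose by 4.25 (SE 0.929) and the scaffold Rack1 by 3.70 (SE 0.766). Of 29 translation initiation factors 25 rose and 0 fell, with a median of 2.98, among them the eIF3 subunits Eif3d (3.51), Eif3l (2.98) and Eif3m (2.59). Of 13 elongation factors and partners 7 rose and 0 fell, with a median of 1.79, among them Eif5a (3.89), Tpt1 (3.70) and Eef1g (3.59).

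The lists of genes that build ribosomes had lower medians, and are read beside the same 11.7% of all genes called higher and 12.7% called lower. Of 55 ribosome biogenesis factors 26 rose and 0 fell, with a median of 1.38, among them the processome protein Imp3 (3.10), Rrp1 (3.04) and nucleolin, Ncl (2.61). Of 19 subunits and cofactors of RNA polymerase I, which transcribes ribosomal RNA, 7 rose and 1 fell, with a median of 0.97. Those with the lowest p were Polr2f (3.01), Polr1c (2.60) and Polr2e (2.47), all shared with other RNA polymerases, and the one that fell was the largest subunit, Polr1a (−1.53). Hypoxia counts of Polr2f, Polr1c, Polr2e and Polr1a were 1.67, 1.64, 2.03 and 1.16 times the expected background, in that order. The part of background in the Polr1a value was not tested. Of 14 regulators of TOP mRNAs 5 rose and 0 fell, with a median of 0.75, among them Eif4ebp2 (3.48), Akt1s1 (2.64) and Cnbp (2.17). Of 75 mitochondrial ribosomal proteins 48 rose and 0 fell, with a median of 2.08. As multiples of background, the lists stood in Hypoxia at 2.23 (ribosome biogenesis), 1.93 (RNA polymerase I) and 1.98 (TOP mRNA regulators). Mitochondrial ribosomal proteins stood at 1.94, initiation factors at 2.79 and elongation factors at 12.5. How far background lowered the medians of these lists was not tested.

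Pseudogenes named after a cytosolic ribosomal protein can share reads with their parents, and how multi-mapping reads were counted is not given in the sources used here. Of 309 such pseudogenes 196 were tested, 59 rose and 6 fell, with a median of 0.94. Among all genes 11.7% were called higher and 12.7% lower, with a median of −0.58. Overlapping genes add a similar doubt: 12 of the 85 tested members have under 80% of their exonic length free of other genes.

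Markers of the other cell types of the gut are read beside the 11.7% of all genes called higher and the 12.7% called lower. In the shortest lists, 1 call cannot be told apart from these shares. All 8 enterocyte markers and all 5 Paneth markers (Lyz1, Defa24, Defa21, Ang4, Mmp7) rose, and Paneth markers summed to 0.0103% to 0.0465% of the nuclear protein-coding counts in Hypoxia and 0.0635% to 0.296% in Hypoxia+Nitrate. All 5 smooth muscle markers (Acta2, Myh11, Des, Tagln, Actg2) rose, but their share overlapped, at 0.0318% to 0.199% and 0.167% to 0.988%. Of 5 goblet markers 2 rose, with shares of 0.0197% to 0.0580% and 0.0442% to 0.122%. Of the smaller lists, 1 of 5 fibroblast, 1 of 4 T cell, 1 of 4 B and plasma cell, 1 of 5 myeloid, and 1 of 4 neuron and glia markers rose, 1 of 3 endothelial markers fell, and 0 of 5 red cell, 0 of 5 enteroendocrine and 0 of 4 pancreas markers were called. Of 5 stem and cycling markers (Lgr5, Olfm4, Ascl2, Mki67, Top2a) 0 were called, and their share was 0.0188% to 0.0261% and 0.00923% to 0.0191%. Their Hypoxia counts were 1.22 times the expected background. The B and plasma cell, T cell, endothelial, myeloid and enteroendocrine lists were at 1.39 to 1.83 times. Enterocyte, Paneth and smooth muscle markers were at 6.54, 13.2 and 15.1 times. The part of background in the marker results was not tested. The part of cell composition in the ribosomal protein result was not tested.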

How the data were processed

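Total RNA of small intestine was sequenced in 8 samples, 4 Hypoxia and 4 Hypoxia+Nitrate, grouped by the sample titles. RNAlater storage, TRIzol extraction and a stranded library kit were used, per the labels' protocols. Per the submitters' processing notes, HISAT, featureCounts 1.5.0-p3, DESeq 1.8.3 and build GRCm38 were used; annotation, strand setting and treatment of multi-mapping or duplicate reads: not given in the sources used here. Raw read counts per gene were deposited by the authors, jointly and per sample, and the 8 per-sample columns equalled the joint table. GENCODE M21 (GRCm38) matched 55240 of 55421 gene IDs and gave positions and exonic lengths.

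Counts were tested in R 4.3.3 with edgeR 4.0.16 (filterByExpr with minimum count 10 and minimum total 15, TMM, quasi-likelihood test, Benjamini-Hochberg, threshold 0.05) over all genes. Standard errors came from the fold change and its F statistic. Background was the count density per kb of unique exonic length of 1471 receptor genes times a gene's own unique exonic length (factor 0.5 on X and Y). Subtracted counts were fitted with limma-voom (limma 3.58.1); DESeq2 1.42.0 was an alternative. Paralog shares used exact permutation tests in scipy 1.17.1. The edgeR and limma-voom fits were also run on simulated counts with known fold changes. That simulation held no background that differed between the groups, and it did not cover background subtraction or paralog shares.

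Total counts were 5345377 to 21835865 in Hypoxia and 8662279 to 63943036 in Hypoxia+Nitrate; limits from counts of 0 cover counting error only. The members and lists were chosen with earlier results of these data known. Named members were all paralogs and their partners, the stalk genes and Rpsa, the 6 largest and 6 smallest fold changes, the 6 lowest p, the 5 highest and 5 lowest levels per kb, and every member not tested or not called; in related lists, up to 3 genes with the lowest p and every gene called lower. Alternatives were other scalings, filters and tools, the replicate block, libraries left out, nuclear protein-coding genes alone and the corrections for background. Results for some genes are not reported here.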

Additional observations from a re-analysis of the deposited data

Results flagged for a closer look

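In 108 groups of 4 values examined for a sample far from the others, 8 held one, and chance alone flags about 1 in 20 groups. In each case the gap to the nearest other sample exceeded the 95% critical value of Dixon's ratio of that gap to the range of the group. Hypoxia 2 was the high sample in 5 of them: 57.8 CPM for Rpl10, 47.1 for Rpl41, 33.5 for Rplp2, 14.9 for Rpl37a and 13.7 for Rps27. All 5 values were below the lowest Hypoxia+Nitrate value of the same gene. The other 3 concern Rpl10l, which was near background: Hypoxia 1 at 2.20 CPM, and Hypoxia+Nitrate 3 at 0.218 CPM and 0.138% of the counts of its pair, where the other Hypoxia+Nitrate libraries had 0 counts.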

How the results depend on the processing

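Of 23 other settings of the fit, the number of ribosomal protein genes called higher (83 of 85) was within a factor of 1.5 in 20. It was 45 with library size as the only scaling, 32 without Hypoxia 1, and 0 with the background share as a covariate; leaving out 1 library gave 32 to 83, and 65 were called without Hypoxia 1 and 2 (1.51% of all genes). The covariate separates the groups without overlap, and edgeR then called 0 of 35431 genes, with 2 members (2.35%, against 2.15% of all genes) higher at an unadjusted p under 0.05 and 80 of 85 fold changes positive; DESeq2 and limma-voom, without the covariate, called 83. The median log2 fold change was 5.06 without Hypoxia 1 and 2 and 1.54 with the covariate (3.29 to 4.28 with 1 library left out). The large minus small median, 0.042, was −0.0599 without Hypoxia 1 and 2, 0.198 after background subtraction and −0.097 with the covariate (−0.0058 to 0.066 with 1 library left out). Related genes called higher numbered 180, against 7 with library size, 104 among nuclear protein-coding genes (213 tested), 56 without Hypoxia 1 and 2, 24 after background subtraction (205 tested), 0 with the covariate and 56 to 214 with 1 library left out. The difference in share was 4.93 percentage points of nuclear protein-coding counts and 2.14 of all counts (4.66 to 5.33 with 1 library left out). Among single genes, Rpl39l ranged from −1.29 to 0.33 with 1 library left out and changed sign without Hypoxia 1 (0.33), Hypoxia+Nitrate 1 (0.11), Hypoxia+Nitrate 4 (0.12), both of the latter (0.78) or Hypoxia 1 and 2 (0.27), and with the covariate (5.79), which also turned Rpl31 (−0.30), Rpl7a (−2.10), Rpl7l1 (−0.19) and Rps4l (−0.45); limma-voom with quality weights called Rpl39l lower (−3.15, adjusted p = 0.0225). The cause was not tested. Whether replicate numbers pair the samples is not stated. Deviations of same-numbered samples correlated between −0.18 and 0.18, and those of differently numbered samples between −0.16 and 0.17, which cannot decide it. With the replicate block in edgeR, 81 members were called higher (6.14% of all genes), and Rpl3l, Rpl13a and Rplp0 were not called (adjusted p 0.0516 to 0.0809). The low counts of Rps12, Rpl7a and the tissue-specific paralogs in Hypoxia limit their fold changes.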
